A study of Mus musculus with 8 samples.

Results

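The EGF family is a set of growth factors that signal through the ErbB receptors, and 10 of its genes were measured in the lower crypts of the jejunum of etoposide-treated mice that had been fasted or fed. The members are 7 ligand genes, Egf, Tgfa, Areg, Ereg, Btc, Hbegf and Nrg1, and 3 receptor genes, Egfr, Erbb2 and Erbb3. They were taken by gene name, which gave 12 probes of 39429 on the array. No measured value entered that rule, but the members were chosen with earlier results of these data known. All 12 probes passed the filter on dim signal, so that all 10 genes stood among the 19527 genes tested.

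The ligands are made as membrane-bound precursors and are released by proteases such as ADAM17. A released ligand pairs receptors on the same or a neighbouring cell, and the paired receptors phosphorylate each other and switch on the RAS-ERK and PI3K-AKT cascades. In the intestinal crypt, Paneth cells and the surrounding stroma are known sources of these ligands, and EGF is a standard component of the medium in which crypts are grown as organoids.

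All 8 mice were Lgr5EGFP-IRES-CreERT2/+, that is, 1 allele of the stem cell gene Lgr5 carried a GFP and an inducible Cre, and they were 4 to 6 weeks old. Etoposide, which breaks DNA by trapping topoisomerase II, was injected into the tail vein of every mouse at 80 mg/kg, with harvest 3 h later. The fasted group (4 mice) had no food for 24 h before the injection, the fed group (4 mice) had food, and both had moistened pellets afterwards, so that fasting and the return to food cannot be told apart. By the labels a group holds 2 males and 2 females, and by the design each array is a mouse of its own. Mice that did not receive etoposide are not among the 8. The comparison of the groups asked how feeding state before a DNA-damaging dose relates to RNA levels in the crypt base.

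Crypts were cut from Methacarn-fixed sections by laser capture, and their RNA was read in 1 colour on Agilent arrays. Values below are log2 levels, the log2 processed signal of a probe minus the 75th percentile of its array, so that 0 is the brightness of the probe at that percentile and -1 is a signal 2-fold under it. A level holds within a probe, and levels of different probes were not set against each other. A probe is called measured on an array where the scanner software flagged it as well above background. Between 53.2% and 65.4% of probes were measured per array. The epithelial gene Epcam, the Paneth cell gene Lyz1 and the stem cell genes Olfm4 and Ascl2 were measured on all 8 arrays, and Lgr5 on 0. The collagen genes Col1a1 and Col3a1 and the leukocyte gene Ptprc were also measured on all 8, so RNA of non-epithelial cell types was read too. In such bulk captures, fewer cells of a type and less RNA per cell cannot be told apart. Fasted replicate 3 stood apart from the other arrays, with correlations across genes of 0.827 to 0.925 to them. Fed replicate 4, labelled female, was not well above background for Xist on either of its probes and was for the Y-linked Eif2s3y, against its label. Fasted replicate 3 was also the 1 array of the later scan day. Like fed replicate 2, it shared its slide with no other array. Values that move most without fasted replicate 3 are given beside the results.

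The probes are 60 bases long. Those of 5 genes are shown because the values below turn on them, and the Egfr pair because its probes gave different values. Capitals mark a stop codon that closes an open reading frame at the 3′ end of a probe, and each sequence is written 5′ to 3′ as in the deposited array design.
Areg: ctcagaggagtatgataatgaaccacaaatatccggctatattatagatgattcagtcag
Nrg1: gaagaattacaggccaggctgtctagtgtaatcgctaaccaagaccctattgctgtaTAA
Egf: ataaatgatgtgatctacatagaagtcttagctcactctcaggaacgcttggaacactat
Egfr, 5′ probe of variant 2: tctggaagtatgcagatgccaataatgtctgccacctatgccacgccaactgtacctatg
Egfr, 3′ probe of variant 2: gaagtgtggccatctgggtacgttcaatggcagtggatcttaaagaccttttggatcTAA
Erbb3: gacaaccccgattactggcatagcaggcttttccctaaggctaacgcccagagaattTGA

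In the mm9 build the Areg probe lies at chr5:91570090-91570149 (plus strand), the Nrg1 probe at chr8:32928500-32928559 (minus) and the Egf probe at chr3:129380826-129380885 (minus). Areg shares its stretch of chromosome 5 with 3 other family ligands: Epgn (probe at 91464119-91464178), Ereg (91522553-91522612) and Btc (91786948-91787007). The Egfr probes lie on chromosome 11 at 16783556-16783615, 16787172-16787231 and, for transcript variant 1, 16813815-16813874. The Erbb3 probe lies at chr10:128006424-128006483 (minus). No exon or UTR annotation of this build was used here.

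The largest differences between the groups were in ligands. The mean was lower in fasted crypts for Areg (-1.42 on the log2 scale) and Btc (-1.42, and -0.72 with normexp, another background correction). It was higher for Nrg1 (1.56, and 0.51 with normexp), which was not well above background on 3 of 4 fed arrays, while the 3 receptors differed by 0.26 or less on the log2 scale at the probe that stands for each gene. None of the 10 genes passed limma's test after Benjamini-Hochberg adjustment over all genes (lowest adjusted p = 0.788), nor did any of the 19527 genes (0%). At an unadjusted p under 0.05, limma picked 1161 of all genes (5.95%), among them Areg and Nrg1. Nrg1 was measured on 4 fasted arrays and 1 fed array and so passed the filter on dim signal through the group where it is high, which leaves its p no support for a difference in the family. In 0 of the 10 were the groups without overlap, against 4.97% of all genes (2.99% higher and 1.98% lower in fasted crypts). The median difference (fasted minus fed) was -0.21 over the members, with 4 higher and 6 lower. Over all genes it was -0.06, with 8691 higher and 10836 lower, so the split of the members was near that of all genes. An absolute log2 difference of 1 or more, met by Areg, Btc and Nrg1, was met by 7.34% of all genes.

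**Figure D1:**
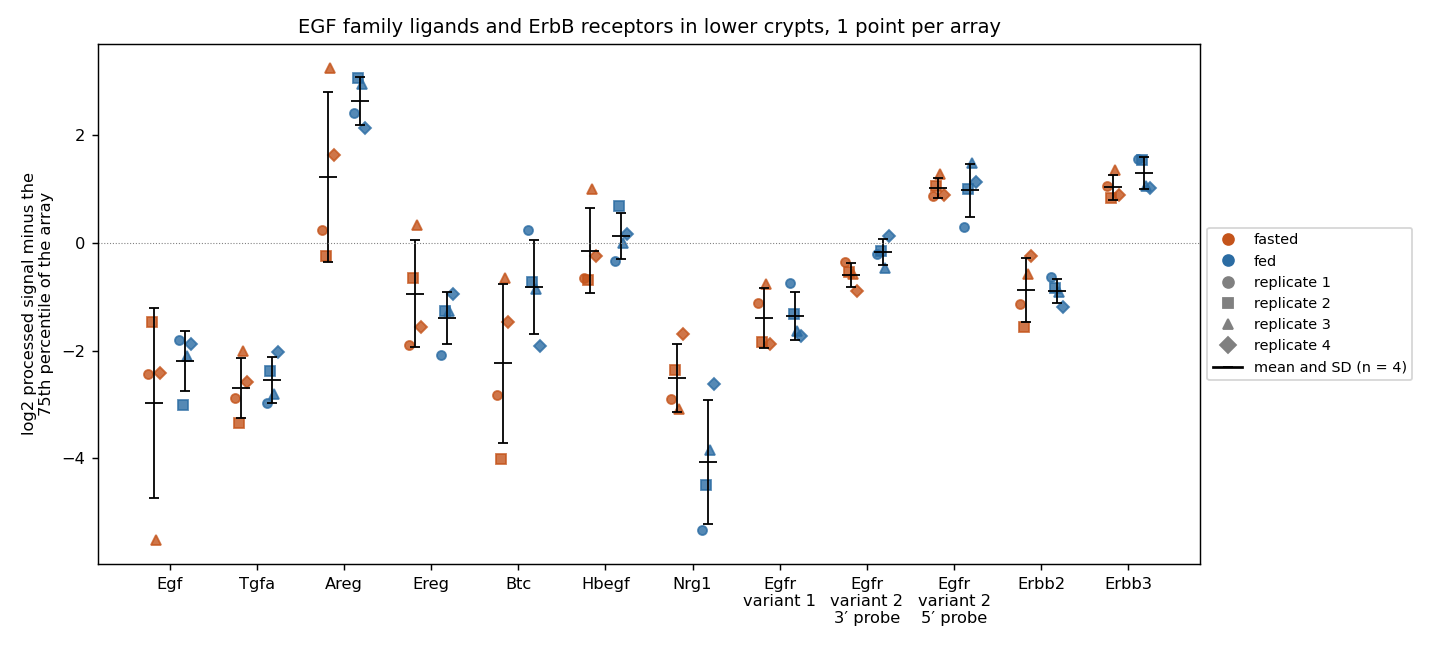
Log2 level (processed signal minus the 75th percentile of the array) of each of the 12 probes on the 8 arrays, orange for fasted and blue for fed, with the marker shape giving the replicate number and bars the mean and SD (n = 4). Areg is lower on fasted replicates 1, 2 and 4 than on any fed array, Nrg1 is low on fed replicates 1 to 3, and the receptors lie close together.

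Amphiregulin (Areg), a ligand of EGFR that many epithelia induce after injury, was lower on most fasted arrays. The fasted arrays read 0.23, -0.25, 3.25 and 1.63 (replicates 1 to 4) and the fed arrays 2.40, 3.05, 2.95 and 2.12. Fasted replicates 1, 2 and 4 all lay under the lowest fed array, and fasted replicate 3 lay above the highest, so the groups overlapped through that array alone. The fasted mean was 1.21 ± 1.57 (SD, n = 4) and the fed mean 2.63 ± 0.44 (SD, n = 4), a difference of -1.42 (SE 0.60, 95% interval -2.78 to -0.05), or 2.67-fold more signal in fed crypts. limma gave an unadjusted p of 0.0438 and an adjusted p of 0.788, and the exact 2-sided permutation test gave p = 0.171, where the smallest possible is 0.0286. Without fasted replicate 3 the difference was -2.01 (limma adjusted p = 0.362), and without fed replicate 4 it was -1.85 (adjusted p = 0.799). Without both it was -2.26 (adjusted p = 0.224), and the adjusted p ran from 0.0815 to 0.999 over all alternatives. Both groups were present on 3 slides, and on each of them Areg was lower in the fasted array, with differences of -2.17, -3.20 and -0.50.

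Betacellulin (Btc), which binds EGFR and ErbB4, had a difference as large as that of Areg with more scatter. The fasted arrays read -2.82, -4.01, -0.66 and -1.48, and the fed arrays 0.23, -0.72, -0.86 and -1.91. The low values were those of fasted replicates 1 and 2, while the other 2 fasted arrays lay within the fed range. The difference was -1.42 (SE 0.74, 95% interval -3.12 to 0.27), or 2.68-fold more signal in fed crypts, with a limma adjusted p of 0.788 and an exact permutation p of 0.2. It shrank to -0.84 without fasted replicate 2 and to -0.89 without fed replicate 1, and was -1.94 without fasted replicate 3. On the slides the fasted array differed by -3.04 and -3.14 and, on the slide of fasted replicate 4 and fed replicate 4, higher by 0.43.

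Heparin-binding EGF (Hbegf), another ligand of EGFR and ErbB4, followed the arrays in an order like that of Areg but with a smaller span. The fasted arrays read -0.66, -0.70, 1.00 and -0.25, and the fed arrays ran from -0.35 to 0.68. Fasted replicates 1 and 2 were the lowest of the 8 arrays and fasted replicate 3 the highest. The difference was -0.28 (SE 0.39, 95% interval -1.18 to 0.62, limma adjusted p = 0.862), and it was -0.64 without fasted replicate 3. The fasted array was the lower one on all 3 slides (-0.31, -0.69 and -0.41).

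Epiregulin (Ereg), the neighbour of Areg on chromosome 5 and also a ligand of EGFR and ErbB4, had no such pattern. The fasted arrays read -1.89, -0.65, 0.32 and -1.56, and the fed arrays -2.09, -1.27, -1.27 and -0.95. The groups overlapped over most of their range, with the highest value again on fasted replicate 3. The difference was 0.45 (SE 0.47, 95% interval -0.64 to 1.54, limma adjusted p = 0.819), and 0.06 without that array.

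Egf, the ligand that gives the family its name, was lowest on fasted replicate 3, the array on which Areg, Ereg and Hbegf were highest. The fasted arrays read -2.44, -1.48, -5.52 and -2.42, and the fed arrays -1.81, -3.02, -2.10 and -1.87. The value of -5.52 was not well above background, and the other 7 arrays lay between -3.02 and -1.48. The difference of -0.77 (SE 0.79, 95% interval -2.59 to 1.06, limma adjusted p = 0.814) turned to 0.10 without that array. Tgfa, a ligand of EGFR, ran from -3.34 to -2.01 on the fasted arrays and from -2.98 to -2.03 on the fed ones. Its groups covered nearly the same range, with a difference of -0.16 (SE 0.38, 95% interval -1.02 to 0.71, limma adjusted p = 0.922), or -0.32 without fasted replicate 3.

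Neuregulin 1 (Nrg1), the ligand of ErbB3 and ErbB4 in the set, had the opposite pattern to Areg. The fasted arrays read -2.89, -2.36, -3.08 and -1.69, all well above background. The fed arrays read -5.32, -4.49, -3.84 and -2.61, and only the last, fed replicate 4, was well above background. The other 3 fed arrays lay under every fasted array, so the groups overlapped only through the array whose sex-linked transcripts went against its label. The difference was 1.56 (SE 0.57, 95% interval 0.25 to 2.86), or 2.94-fold more signal in fasted crypts, with a limma unadjusted p of 0.0247, an adjusted p of 0.788 and an exact permutation p of 0.0857. Since 3 of the 4 fed values were not well above background, the fold rests on the background correction, and it was 0.51 on the log2 scale with normexp and 2.68 in the authors' deposited matrix. Without fed replicate 4 the difference was 1.95, without fasted replicate 3 it was 1.98, and on the 3 slides the fasted array was the higher one by 2.43, 1.48 and 0.92.

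**Figure D2:**
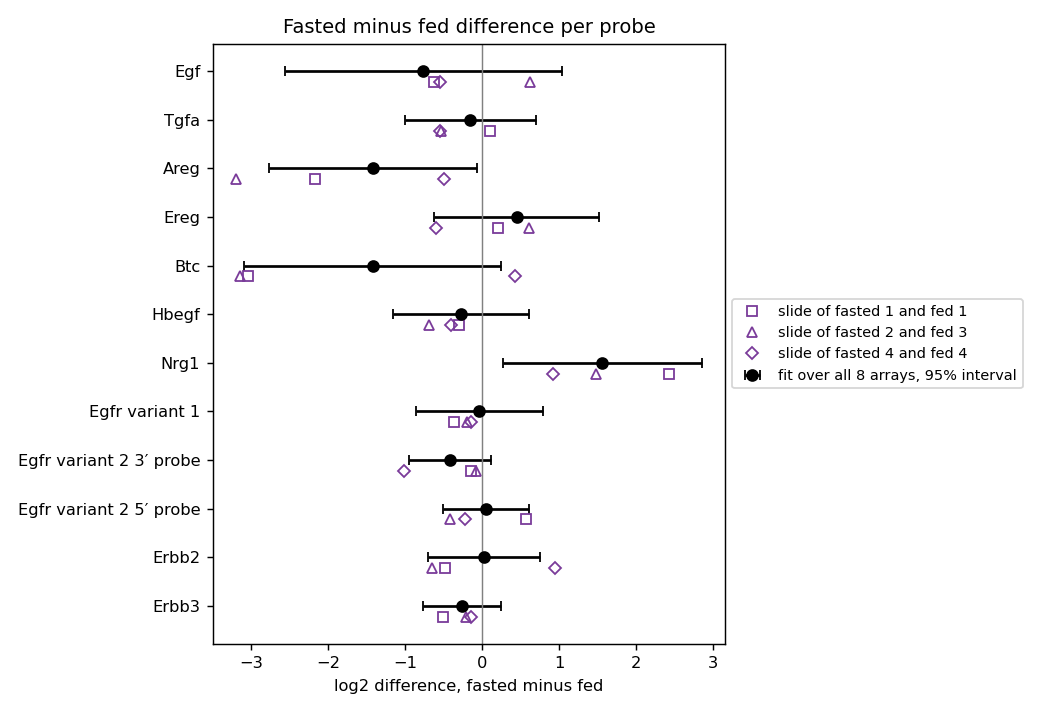
Log2 difference (fasted minus fed) of each probe from the probe-level fit, as a black point with its 95% interval, beside the differences within the 3 slides that held both groups (open symbols). All 3 slide differences are below 0 for Areg and above 0 for Nrg1, while those of Btc span -3.14 to 0.43.

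Among the receptors, Egfr, which binds most ligands of the family, was read by 3 probes that did not move alike. The brightest, the 5′ probe of variant 2, stood for the gene. The array design assigns it to variant 2, and whether it also reads variant 1 was not settled here. It read 0.86, 1.05, 1.27 and 0.89 on the fasted arrays and 0.30, 0.99, 1.47 and 1.12 on the fed ones, and the fasted values all lay inside the fed range. Its difference was 0.05 (SE 0.25, 95% interval -0.51 to 0.61, limma adjusted p = 0.964). The 3′ probe of the same variant, the one whose sequence ends in a stop codon, read -0.35, -0.55, -0.58 and -0.90 on the fasted arrays and -0.20, -0.15, -0.47 and 0.11 on the fed ones. Only fasted replicate 1 and fed replicate 3 crossed, and the difference was -0.42 (95% interval -0.95 to 0.11) with a limma adjusted p of 0.765 over all probes and an exact permutation p of 0.0571. The variant 1 probe gave -0.04 (95% interval -0.87 to 0.79), and -0.34 without fasted replicate 3. Whether the probes differ from each other in their response was not tested.

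Erbb2, the receptor with no known ligand of its own, read -1.13, -1.57, -0.58 and -0.24 on the fasted arrays and from -1.19 to -0.64 on the fed ones. The fed values lay inside the fasted range, and the difference was 0.02 (SE 0.32, 95% interval -0.72 to 0.75, limma adjusted p = 0.990), or -0.04 without fasted replicate 3. Erbb3, a neuregulin receptor with little kinase activity, read 1.05, 0.83, 1.35 and 0.88 on the fasted arrays and 1.55, 1.54, 1.04 and 1.02 on the fed ones. Fed replicates 1 and 2 were above all fasted arrays, and fed replicates 3 and 4 lay among them. The difference was -0.26 (SE 0.22, 95% interval -0.78 to 0.25, limma adjusted p = 0.796), with the fasted array lower on all 3 slides (-0.51, -0.22 and -0.14). Without fasted replicate 3 it was -0.43. The interval of each receptor gene leaves room for a difference of up to 0.78 in size, so a p over the threshold does not show equal levels.

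The spread between replicates varied over the members, which is described here without a test. The SD within groups was 1.31 for Egf, 1.21 for Btc, 1.15 for Areg and 0.92 for Nrg1, and 80.0% to 90.6% of all genes had a smaller one. That of Egf includes the value of -5.52 on fasted replicate 3, which was not well above background. That of Nrg1 was larger in the fed group (SD 1.14, against 0.63 in the fasted), where most values were not well above background. It was 0.78 for Ereg, 0.64 for Hbegf and 0.50 for Tgfa, the last close to Erbb2. For Egfr, Erbb2 and Erbb3 it was 0.37, 0.44 and 0.27, all under the median of 0.47 over all genes. Of the probes 4 are spotted repeatedly, with 7 to 10 spots used per array, and their spots lay closer together than their arrays. The median SD between spots was 0.13 for Egf, 0.16 for Tgfa, 0.08 for Erbb2 and 0.11 for the variant 1 probe of Egfr.

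**Figure D3:**
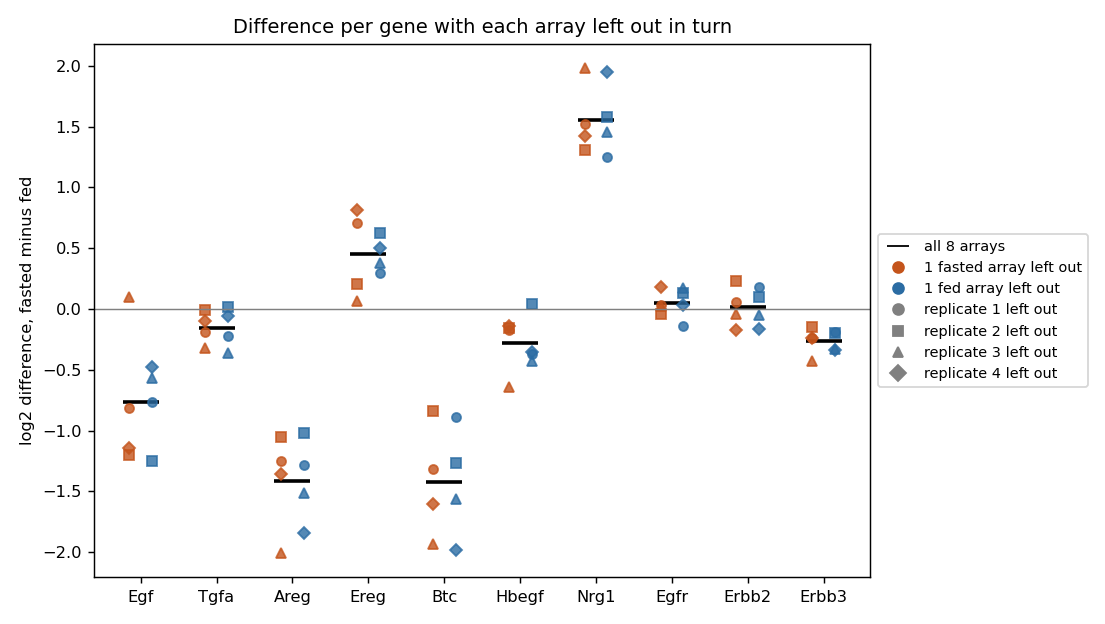
Log2 difference (fasted minus fed) of each gene with all 8 arrays (black line) and with 1 array left out (orange for a fasted array, blue for a fed array, marker shape for its replicate number). Areg, Btc, Nrg1, Erbb3 and Ereg keep their side of 0 whichever array is left out, Ereg with 0.06 when that array is fasted replicate 3. Egf crosses 0 when fasted replicate 3 is left out, and Tgfa, Hbegf, Egfr and Erbb2 also cross it.

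Across the 8 arrays several ligands went up and down together, described here by correlations without a test. The arrays share slides, and the points include both groups. The highest of the 45 pairs was Areg with Btc (r = 0.89, rho = 0.83, and 0.89 without fasted replicate 3). Areg with Hbegf gave r = 0.83 (rho = 0.88) and Tgfa with Hbegf r = 0.83 (rho = 0.93). Without the 2 arrays farthest from the median of the first gene, r was 0.47, 0.74 and 0.82, so that of Areg with Btc rests largely on fasted replicates 1 and 2. Areg and Ereg, neighbours on chromosome 5, gave r = 0.23, and -0.17 without fasted replicate 3. The lowest pair was Nrg1 with Erbb3, a ligand with its receptor, at r = -0.86 (rho = -0.90, and -0.55 without the 2 farthest arrays). Most fed values of Nrg1 were not well above background. Both genes also moved with the share of probes measured per array, Nrg1 with it (r = 0.75) and Erbb3 against it (r = -0.95). The part of that share in this pair was not tested.

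The levels of several members moved with measures of the capture and the array. Markers of absorptive enterocytes, the differentiated cells above the crypt, were higher in the fasted group for 19 of 19 genes (median 1.13, 0 called after adjustment), with array medians of 2.22, 2.27, 0.37 and 1.62 on the fasted arrays and 0.74, -0.07, 0.75 and 0.30 on the fed ones. Areg ran against these medians (r = -0.92, rho = -0.79), as did Hbegf (r = -0.84) and Btc (r = -0.76). Without the 2 farthest arrays r was -0.70 for Areg, -0.69 for Hbegf and -0.14 for Btc, so that of Btc rests largely on those arrays. With the array medians of epithelial markers r was 0.90 for Areg, 0.83 for Btc and 0.81 for Hbegf. Without the 2 arrays farthest for that list it was 0.91, 0.91 and 0.70. Paneth cell markers were lower in the fasted group for 7 of 7 measured genes (median -0.48, 0 called), and their array medians gave r = 0.52 with Egf, 0.30 with Areg and 0.54 with Btc. Without fasted replicate 3 these were -0.15, 0.76 and 0.92, so the order of the members turns on that array. Fibroblast and smooth muscle markers were split 5 higher and 6 lower in the fasted group (median -0.06, 0 called). Their array medians ran from 1.38 to 2.53 in the fasted and from 0.79 to 1.93 in the fed group, and gave r = -0.14 with Nrg1. The part of these other cells in the ligand differences was not tested.

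The share of probes measured per array was 60.9%, 65.4%, 53.6% and 63.9% in the fasted and 53.2%, 55.5%, 62.0% and 62.7% in the fed group. Erbb3 ran against it (r = -0.95, rho = -0.98, and -0.98 without the 2 farthest arrays), Btc and Areg likewise (r = -0.77 and -0.65), and Nrg1 ran with it (r = 0.75, rho = 0.86). With this share as a term in the fit, the limma difference was -0.96 for Areg (adjusted p = 0.0815), and the adjusted p was 0.0893 for Nrg1 and 0.0976 for Egf. That fit gave an unadjusted p under 0.05 for 5561 genes and called 0 at the threshold of 0.05. An adjusted p under 0.1 was reached by 3102 of the 19527 genes, those 3 members among them. Nrg1 passed the filter on dim signal through the fasted group. The Egf difference of the main fit turned to 0.10 without fasted replicate 3, whose Egf value was not well above background. The p of Nrg1 and Egf thus give no support for a difference in the family. The part of this share in the values of Erbb3, Btc, Areg and Nrg1 was otherwise not tested.

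The genes whose levels were most like a member's over the 8 arrays, by Pearson correlation, are given as a description. They are the 3 highest picked from the tested genes over only 8 arrays, and all members had such genes at 0.90 or more. Shared regulation was not tested. For Areg they were Rela, an NF-kappaB subunit (r = 0.99), Zyx, a focal adhesion protein (0.99), and the secreted phospholipase Pla2g2f (0.98). For Btc they were Qsox1 (0.99), Slc35e4 (0.98) and the AP-1 gene Jun (0.96), and for Hbegf the gene Phlda1 (0.98), the protease gene Adam8 (0.98) and the transcription factor gene Foxa1 (0.98). For Tgfa they were Otub1 (0.96), Abhd17b (0.95) and Nfkbiz (0.93), and for Ereg Cdv3 (0.97), Rab11a (0.94) and Exosc1 (0.94). For Egf they were Olfr285, the defensin gene Defa25 and Tmod4 (0.98 to 0.99), which fell to between 0.83 and 0.89 without fasted replicate 3. For Nrg1 they were Bend7 (0.95), Firre (0.95) and Bglap2 (0.94). The receptors had Xaf1 (0.95), Zfp426 and Fxyd2 (0.94) for Egfr, Neu1 (0.97), Rb1cc1 (0.92) and Pnpla2 (0.90) for Erbb2, and Ost4, Farp1 and Thyn1 (0.98) for Erbb3.

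Of the other genes of the pathway, 93 were listed in 6 groups by role, and 0 of them were called in either direction. These lists, too, were chosen with earlier results of these data known. The remaining family members were Epgn, Nrg2, Nrg3, Nrg4 and the receptor Erbb4. Erbb4 was measured on 0 of 8 arrays, which leaves ErbB4, the other neuregulin receptor, without a value here. Of the 4 ligands tested 3 were lower in fasted crypts (median -0.48). Without fasted replicate 3 the split was 2 and 2 (median -0.09). Under a filter on all 8 arrays the median was 0.44, which is the value of Nrg4. The probes of Epgn, Nrg2 and Nrg3 did not pass that filter, so it does not show a turn of the list. Epigen (Epgn), a ligand of EGFR in the same stretch of chromosome 5 as Areg, had the largest difference of these at -1.06 (SE 0.63, limma adjusted p = 0.788). Without fasted replicate 3 its difference was -0.46. It was measured on 3 arrays of each group, and its levels ran from -5.76 to -2.98 in fasted and from -3.30 to -2.45 in fed crypts.

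The 12 genes of ligand shedding and trafficking were split 6 and 6, with a median of 0.02, and without fasted replicate 3 they were split 4 higher and 8 lower (median -0.10). The metalloprotease genes Adam19 and Adam10 had differences of 0.80 (SE 0.39) and 0.34 (SE 0.31), the latter 0.056 without that array, and Rhbdf2, an inactive rhomboid that carries ADAM17 to the cell surface, had -0.36 (SE 0.22). Among adaptors and RAS-ERK kinases, 15 of 18 tested genes were higher in fasted crypts (median 0.17), against 8691 of all 19527 genes. Ksr1, a scaffold of the cascade, had a difference of 0.47 (SE 0.22) and the adaptor gene Shc1 0.43 (SE 0.23), each with a limma adjusted p of 0.788. Without fasted replicate 3 the list was split 10 higher and 8 lower (median 0.02), and Shc1 was at 0.24. In the PI3K-AKT, PLC, SRC and STAT arms 9 of 13 were higher (median 0.11), but 4 of 13 without fasted replicate 3 (median -0.09). The list was led by Prkca at 0.67 (SE 0.26), Pik3r2 at 0.99 (SE 0.44) and Pik3r1 at 0.73 (SE 0.36), where Pik3r2 and Pik3r1 encode regulatory subunits of PI3K.

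The genes downstream of the cascade were mostly lower. Of 15 tested ERK-responsive output genes 13 were lower in fasted crypts, against 10836 of all 19527 genes. Their median was -0.34 against -0.06 over all genes. Etv4, an ETS transcription factor, read 1.47 to 2.14 in fasted and 2.15 to 2.93 in fed crypts (difference -0.76, SE 0.25, limma adjusted p = 0.788). Egr3, an immediate early transcription factor, read -2.24 to -0.46 and -0.45 to 0.91 (difference -1.36, SE 0.46, adjusted p = 0.788). These were the 2 of the 15 whose groups did not overlap, against 1.98% of all genes on the lower side, and for both the gap between the nearest fasted and fed arrays was small. By array, the median of the output genes was 0.06, -0.12, 1.39 and 0.40 in the fasted and 0.64, 1.34, 0.71 and 0.46 in the fed group, so fasted replicate 3 was again highest. The median difference was lower in fasted crypts in each of 26 alternatives, from -0.66 to -0.15, and without fasted replicate 3 all 15 genes were lower (median -0.61). Some of these alternatives, such as the threshold of 0.1, could not change the median.

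Of the feedback inhibitors and receptor degradation genes, 13 of 21 were lower (median -0.14), beside 10836 of 19527 over all genes. The ERK phosphatase genes Dusp5, Dusp4 and Dusp7 had differences of -0.79 (SE 0.37), -0.69 (SE 0.40) and -0.95 (SE 0.63), and Lrig2 had -0.62 (SE 0.32). Without fasted replicate 3 the values were -1.10 for Dusp5, -0.86 for Dusp4 and -0.25 for Dusp7, so that of Dusp7 rests on that array. Dusp5 read -1.77, -1.47, -0.33 and -1.25 in fasted crypts and -0.47, 0.08, -0.44 and -0.84 in fed ones, with fasted replicate 3 the highest of its group as for Areg.

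**Figure D4:**
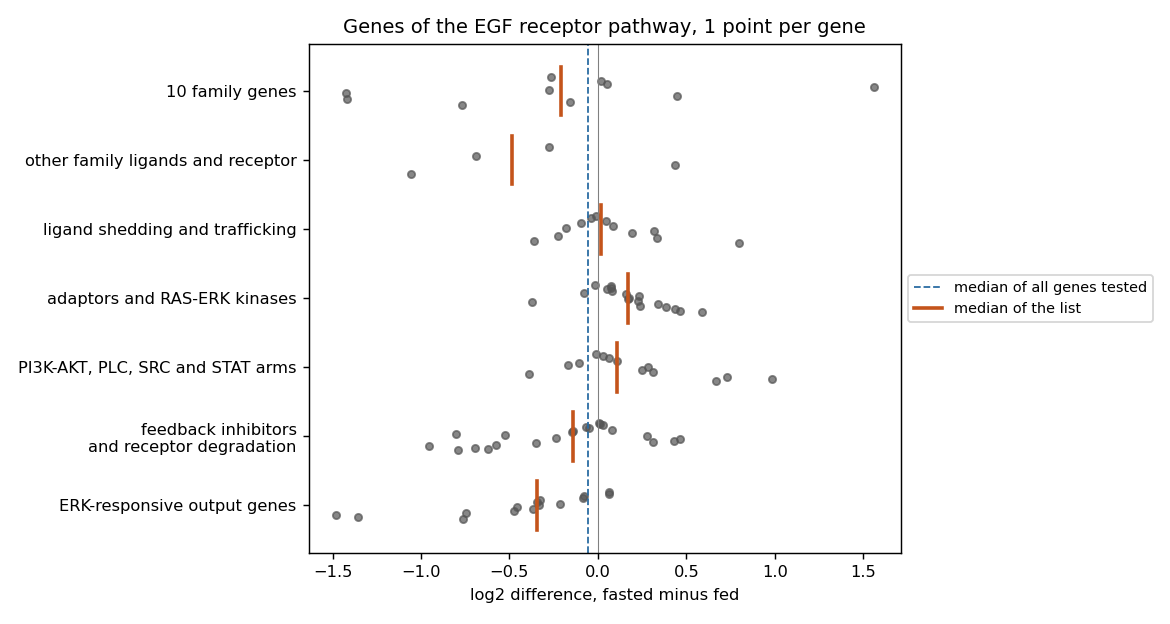
Log2 difference (fasted minus fed) of each tested gene of the pathway, 1 point per gene, with the median of each list (orange line) and of all genes tested (dashed line, -0.06). The medians run from -0.48 for the other ligands and -0.34 for the ERK-responsive output genes to 0.17 for the adaptors and RAS-ERK kinases.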

How the data were processed

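The deposited scanner files hold linear spot intensities. Per the file headers, Agilent Feature Extraction 11.5.1.1 gave the authors these intensities with background subtracted. The authors' deposited matrix holds log2 values whose scaling is not given in the sources used here. Control spots and outlier-flagged spots were left out and 0 probes were saturated. Spots of a probe were averaged in log2, the array's 75th percentile was subtracted, and a probe was kept if measured (well above background) on 4 or more of the 8 arrays. The brightest probe stood for a gene. Of the probes 27655 were named through their RefSeq accession (GRCm38.p6 table, used for no coordinates) and 11774 by the files. Genes were tested with limma 3.58.1 in R 4.3.3 (lmFit, eBayes with a mean trend; terms group and labelled sex; Benjamini-Hochberg threshold 0.05). The fit was tested on simulated data whose noise was drawn independently for each array. Deviations of real arrays of the same slide correlated at 0.37 to 0.61, which that simulation does not cover. Array number limits precision. The members and lists were chosen with earlier results of these data known. The text names all members and their probes, up to 4 tested genes per pathway list by smallest p, the 3 genes most like each member, and markers of the tissue. A gene that this rule takes is not reported here. Alternatives were other scaling, background, filters, probe rules, covariates, blocks, weights, variance model, threshold and omitted arrays. The 0.1 threshold in the alternative fits, the correlations with marker lists, and pathway genes without fasted replicate 3 were added after seeing the data.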

Additional observations from a re-analysis of the deposited data

How the results depend on the processing

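With 4 arrays a group, limma called 0 genes at a threshold of 0.05 in all alternatives run, and 0 at 0.1 except with the share of measured probes as a term, where 3102 genes had an adjusted p under 0.1. Stability here is thus that of directions. Areg, Btc and Erbb3 kept their direction in 27 of 27 alternatives and Nrg1 in 25 of 25. Some of these alternatives change the p but not the difference, and so could not have turned a direction. Among them are the threshold of 0.1, the variance model, the replicate block, the fit without the sex term and the exact permutation test. Nrg1 could not be tested under the filter on all 8 arrays or without fasted replicate 3 and fed replicate 4. Egfr, near 0, turned to -0.018 in the authors' matrix, -0.14 as the mean of its probes, -0.030 with slide as a fixed block and -0.15 with array weights. Erbb2 turned to -0.065 with slide as a fixed block and -0.18 without fasted replicate 3 and fed replicate 4, which also turned Egf to 0.19, and Ereg turned to -0.19 with array weights. With 1 array left out, the difference ran from -1.25 to 0.097 for Egf, -0.36 to 0.020 for Tgfa, -0.64 to 0.044 for Hbegf, -0.14 to 0.18 for Egfr and -0.18 to 0.23 for Erbb2. The cause of these turns was not tested. Probes near background limit the values of Nrg1 in fed crypts.

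The replicate numbers did not pair the samples: deviations of same-numbered arrays correlated at 0.37, -0.47, -0.45 and 0.61. Replicates 1 and 4, the positive ones, also shared a slide. Fasted and fed arrays of the same slide correlated at 0.37, 0.54 and 0.61, and the main fit has no slide term. With the replicate block, 0 genes were called (lowest adjusted p = 0.752 by limma) and the Areg difference stayed -1.42. With slide as a fixed block, 2555 genes (13.1%) had an unadjusted p under 0.05 and 0 were called.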
